A study of Mus musculus with 10 samples.

Results

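The genes described here encode the receptors through which the exocrine pancreas is told to secrete and the proteins that release and recapture calcium after those receptors fire. They were chosen by symbol, as Cckar, Chrm1, Chrm3, Sctr, Vipr1, Gnaq, Itpr1, Itpr2, Itpr3 and Atp2a2, and all 10 were found among the 24062 genes of the count files. RNA was sequenced from the pancreas of 5 WT and 5 KSR23 mice, all of the C57BL/6 strain and 5 days old (P5), as biological replicates. KSR23 mice combine the R23 allele, from which IL-23 is made once a floxed STOP is cut out, with a Cre driven by the K14 promoter, which is active in keratinocytes. WT mice are labelled wild type and described as control littermates. Litter and sex are not given for any library, nor whether a WT mouse carried 1 of the alleles. The comparison asks how the newborn pancreas differs when IL-23 is made under K14-Cre.

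Acinar cells make and store the digestive enzymes and release them on demand. Cholecystokinin acts through Cckar, and acetylcholine from the vagus nerve acts through the muscarinic receptors Chrm1 and Chrm3. Both classes couple to the G protein subunit encoded by Gnaq, which activates phospholipase C to make inositol trisphosphate (IP3). IP3 opens the receptor channels of the endoplasmic reticulum encoded by Itpr1, Itpr2 and Itpr3, calcium enters the cytosol and granules fuse, and the pump encoded by Atp2a2 (SERCA2) returns calcium to the store. Secretin and vasoactive intestinal peptide act through Sctr and Vipr1, which couple mainly to cyclic AMP. Sctr is best known from duct cells, where it drives bicarbonate secretion.

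Gene counts summed to 26830235 to 33189132 per WT library and to 16715976 to 57784136 per KSR23 library. KSR23 replicate 3 was the smallest, and it stood apart on principal component 2 of log2 CPM (read counts scaled for library size), with a score of 33.42 where the other 9 libraries scored from -13.27 to 6.416. Il23a, which encodes a subunit of the transgene product, was at 0.857 to 1.21 CPM in KSR23 mice and at 0.0372 to 0.316 CPM in WT mice, without overlap. Il12b, which encodes the other subunit, was at 0.0888 to 0.327 CPM in KSR23 mice and at 0 to 0.24 CPM in WT mice, with overlap and at most 13 counts in a library. The counts were tested in edgeR by quasi-likelihood, p-values were adjusted by the Benjamini-Hochberg method over 13882 genes (those reaching 5 counts in each library), and a gene was called when this edgeR-adjusted p was under 0.05. CPM values are scaled by the TMM method, log2 FC is KSR23 against WT, and 95% intervals were taken from the standard error by the normal approximation. Exact permutation tests were two-sided and compared group means.

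Of the 10 members, all of which passed the filter on low counts, Cckar, Gnaq and Itpr1 were lower in KSR23 mice and Sctr was higher. Chrm1, Chrm3, Vipr1, Itpr2, Itpr3 and Atp2a2 were not called. Among all tested genes 31.1% were called, with 16.3% higher and 14.8% lower, and the 4 called members of 10 are read against these rates. The median log2 FC was 0.0488 over the members and -0.00562 over all tested genes. The 2 groups did not overlap in Cckar and Gnaq (lower) and in Sctr (higher), where 8.74% of all tested genes were lower without overlap and 10.7% higher, 19.4% in all. Over 18 alternative analyses, Cckar, Gnaq and Itpr1 were called lower in every one.

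**Figure D1:**
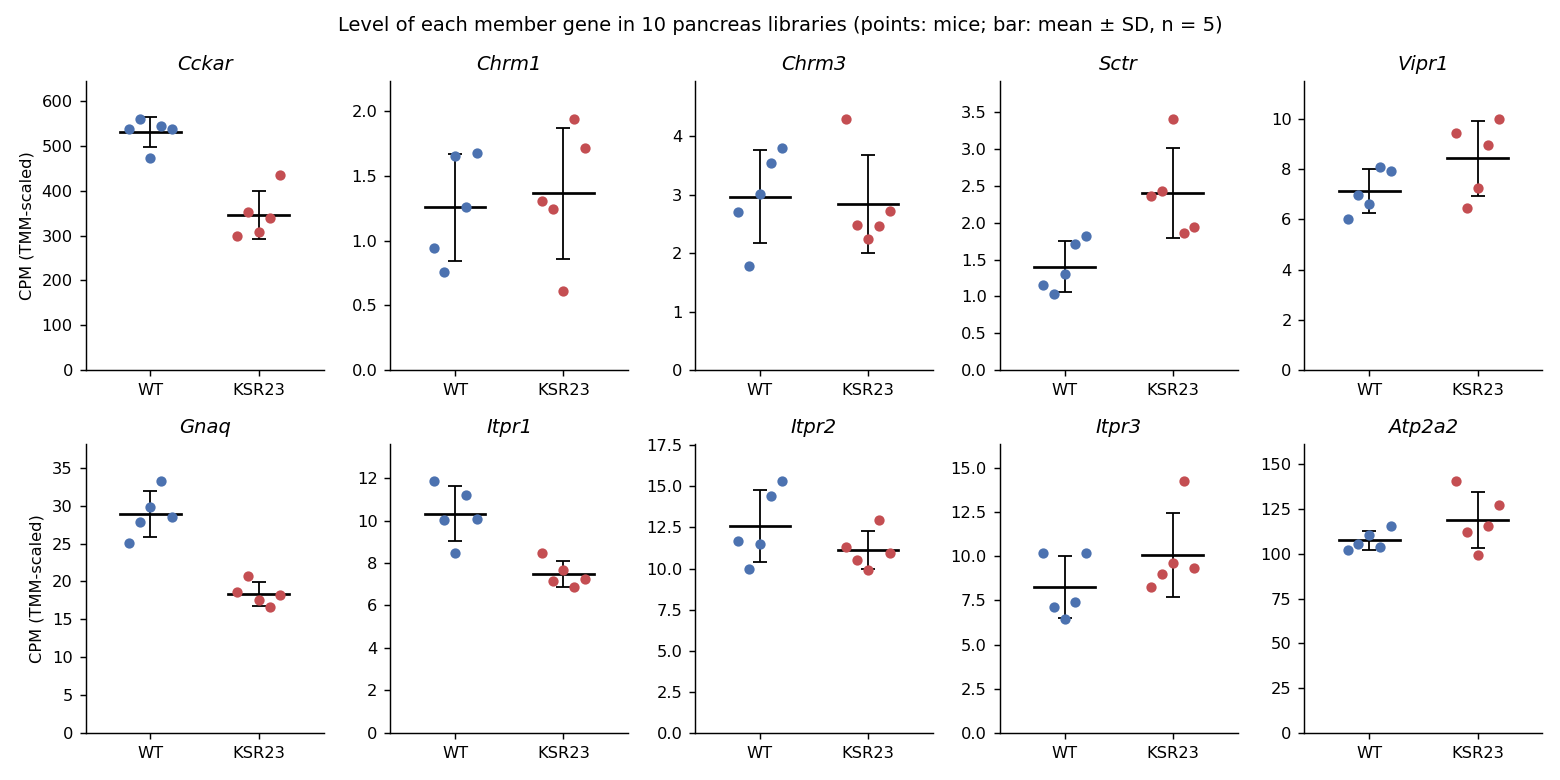
TMM-scaled CPM (vertical axis, from 0, a scale of its own in each panel) of each member in the 5 WT (blue) and 5 KSR23 (red) mice, with the mean and SD as black bars. Cckar and Gnaq of every KSR23 mouse lie below, and Sctr of every KSR23 mouse above, the WT mice.

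**Figure D2:**
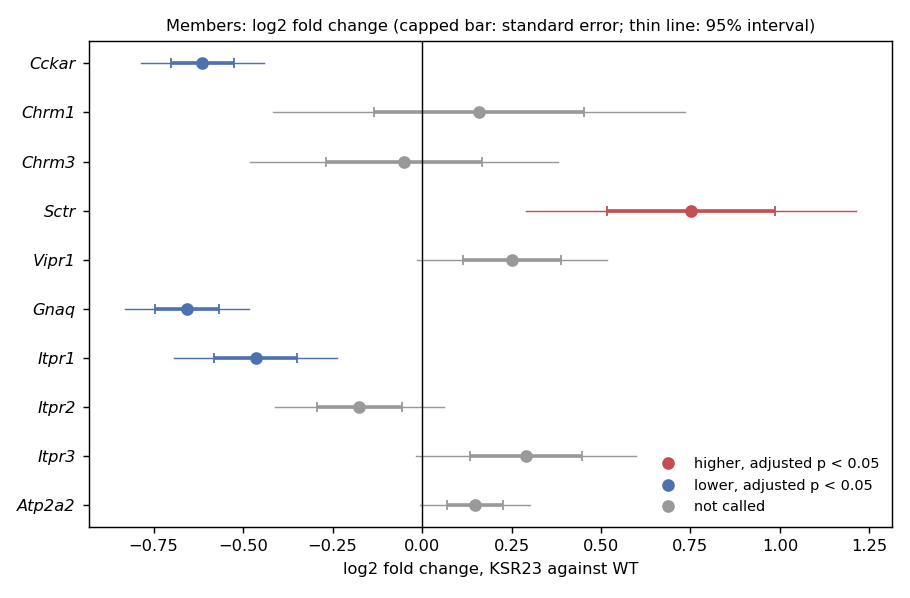
Log2 FC of KSR23 against WT for each member (horizontal axis), with the standard error as a capped bar and the 95% interval as a thin line. Blue marks genes called lower (Cckar, Gnaq and Itpr1), red the gene called higher (Sctr) and grey those not called.

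Cckar, the receptor for cholecystokinin, was by far the most abundant of the 5 receptor transcripts. It lies on chromosome 5 of GRCm38 (the assembly that mm10 names), from 53697776 to 53707705 on the minus strand. Cckar was at 538, 560, 472, 545 and 538 CPM in WT replicates 1 to 5 and at 299, 352, 309, 338 and 434 CPM in KSR23 replicates 1 to 5. Each KSR23 mouse was below each WT mouse, with KSR23 replicate 5 closest to the controls. The mean fell from 530 ± 33.9 to 346 ± 53.5 CPM (SD, n = 5 each), for which the log2 FC was -0.61 (standard error, SE, 0.0876, 95% interval -0.79 to -0.44, edgeR-adjusted p = 1.49e-05). The CPM values gave an exact permutation p of 0.00794, the smallest that 5 mice against 5 allow. Leaving out any 1 library gave values from -0.71 to -0.57, and -0.57 without KSR23 replicate 3 (edgeR-adjusted p = 4.25e-05).

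Most acinar marker transcripts were lower as well. Of 8 acinar marker genes (Cpa1, Cela1, Ctrb1, Cel, Ptf1a, Bhlha15, Rbpjl and Nr5a2), 6 were called lower, none was called higher and Ctrb1 and Nr5a2 were not called. The list had a median log2 FC of -0.465, none was at 0, and their summed level ranged from 168800 to 182500 CPM in WT mice and from 107200 to 134300 CPM in KSR23 mice. Relative to the mean log2 CPM of these 8 genes, a measure chosen after the values were seen, Cckar was at -1.44 ± 0.107 in WT mice against -1.33 ± 0.117 in KSR23 mice (SD, n = 5 each, exact permutation p = 0.135). The mean of the 8 genes went from 10.5 ± 0.0552 to 9.75 ± 0.101 log2 CPM, a larger fall than their median, since Cela1 (log2 FC -2.53) and Cpa1 (log2 FC -1.37) fell most. In whole tissue, fewer acinar cells and less RNA of a gene per acinar cell cannot be told apart.

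The genes whose profile over the 10 libraries lay closest to that of Cckar were Adhfe1, Pdia2, Cbs, Cel and Sc5d, with root mean square distances of 0.102, 0.104, 0.104, 0.106 and 0.109 in log2 CPM relative to the WT mean. Pdia2 encodes a protein disulfide isomerase of the pancreas and Cel encodes the bile salt-dependent lipase. Their log2 FC was -0.62 and -0.59, which is near that of Cckar because the distance selects for it.

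Sctr, the secretin receptor, was the member that rose. It lies on chromosome 1, from 120006894 to 120063536 on the plus strand. Sctr was at 1.16, 1.03, 1.30, 1.71 and 1.82 CPM in WT replicates 1 to 5 and at 2.36, 2.43, 3.41, 1.87 and 1.95 CPM in KSR23 replicates 1 to 5. Each KSR23 mouse was above each WT mouse, but the lowest KSR23 mouse and the highest WT mouse were close. These levels rest on 30 to 53 counts per WT library and 61 to 109 per KSR23 library. The mean rose from 1.40 ± 0.347 to 2.40 ± 0.615 CPM (SD, n = 5 each), for which the log2 FC was 0.75 (SE 0.235, 95% interval 0.29 to 1.21, edgeR-adjusted p = 0.0187). Without KSR23 replicate 3, which had the highest level, the log2 FC was 0.61 and the call was lost (edgeR-adjusted p = 0.0541), and Sctr was called in the other 17 alternatives.

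Most duct marker transcripts were higher, as Sctr was. Of 6 duct marker genes, 4 were called higher, among them Krt7, Sox9 and Spp1, and Krt19 and Onecut1 were not called, with a median log2 FC of 0.626. Their summed level ranged from 936 to 1049 CPM in WT mice and from 1546 to 1705 CPM in KSR23 mice. Relative to the mean log2 CPM of these 6 genes, Sctr was at -5.25 ± 0.406 in WT mice against -4.95 ± 0.315 in KSR23 mice (SD, n = 5 each, exact permutation p = 0.246). The part of duct cell number in the rise of Sctr was not tested.

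The muscarinic receptor genes were not called. Chrm3 lies on chromosome 13 from 9875486 to 10360847 and Chrm1 on chromosome 19 from 8663789 to 8683587. Chrm3, the main muscarinic receptor of acinar cells, was at 2.70, 1.78, 3.02, 3.55 and 3.80 CPM in WT replicates 1 to 5 and at 4.30, 2.49, 2.24, 2.46 and 2.73 CPM in KSR23 replicates 1 to 5. KSR23 replicate 1 was the highest of all 10 mice and the other KSR23 mice lay inside the WT range. The log2 FC of Chrm3 was -0.05 (95% interval -0.48 to 0.38, edgeR-adjusted p = 0.886). Its sign turned to positive under total-count scaling (each library divided by its total alone, with no TMM factor) and with WT replicate 4 or 5 or KSR23 replicate 3 or 4 left out. The value rests on 40 to 171 counts per library, and the interval does not exclude a fall as large as a log2 FC of -0.48.

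Chrm1 was at 0.946, 0.755, 1.65, 1.26 and 1.68 CPM in WT replicates 1 to 5 and at 1.31, 1.24, 0.615, 1.94 and 1.71 CPM in KSR23 replicates 1 to 5. The groups overlapped over most of their range. Its log2 FC of 0.16 had a 95% interval of -0.42 to 0.73 (edgeR-adjusted p = 0.724) and rested on 11 to 96 counts per library. With 1 library left out, it ran from 0.0093 without KSR23 replicate 4 to 0.31 without KSR23 replicate 3. Genes of other cells that carry muscarinic receptors were present in the tissue. None of 6 nerve and glia markers was called by the edgeR quasi-likelihood test (2 had an unadjusted p under 0.05, and the likelihood ratio test and DESeq2 called 1 each), with a summed level of 9.455 to 14.84 CPM in WT mice against 12.03 to 16.21 CPM in KSR23 mice, and 1 of 5 smooth muscle markers (Acta2, log2 FC -0.48) was called lower, with sums of 126.2 to 147 and 94.74 to 120.7 CPM.

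Vipr1, a receptor for vasoactive intestinal peptide, was at 6.02, 6.97, 6.60, 8.09 and 7.93 CPM in WT replicates 1 to 5 and at 9.45, 6.45, 7.27, 8.96 and 10.01 CPM in KSR23 replicates 1 to 5. The gene lies on chromosome 9 from 121642716 to 121672954. KSR23 replicates 1, 4 and 5 were above all WT mice and the others lay inside the WT range. The log2 FC was 0.25 (95% interval -0.02 to 0.52), which was not called (edgeR-adjusted p = 0.17).

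Per kilobase of the longest coding transcript in GENCODE M21, Cckar made up nearly all of the receptor signal. Its share of the summed counts per kb of the 5 receptor genes was 98.2% ± 0.336 in WT mice against 96.5% ± 0.666 in KSR23 mice (SD, n = 5 each), without overlap. The shares of Sctr and Vipr1 were higher in each KSR23 mouse than in any WT mouse. Sctr went from 0.418% ± 0.102 to 1.11% ± 0.387 and Vipr1 from 0.870% ± 0.0997 to 1.56% ± 0.301. These 3 shares had an exact permutation p of 0.00794, or 0.0132 adjusted over the 5 shares. Chrm1 and Chrm3 shares overlapped between the groups, and their exact p, once adjusted, was 0.0794 and 0.0873. A share depends on the other receptors, so the higher share of Vipr1 stands beside a level that was not called and a Cckar level that fell. The summed level of the other 4 receptors was 3.04 ± 0.542 CPM per kb in WT mice against 3.79 ± 0.370 in KSR23 mice (exact permutation p = 0.0476).

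**Figure D3:**
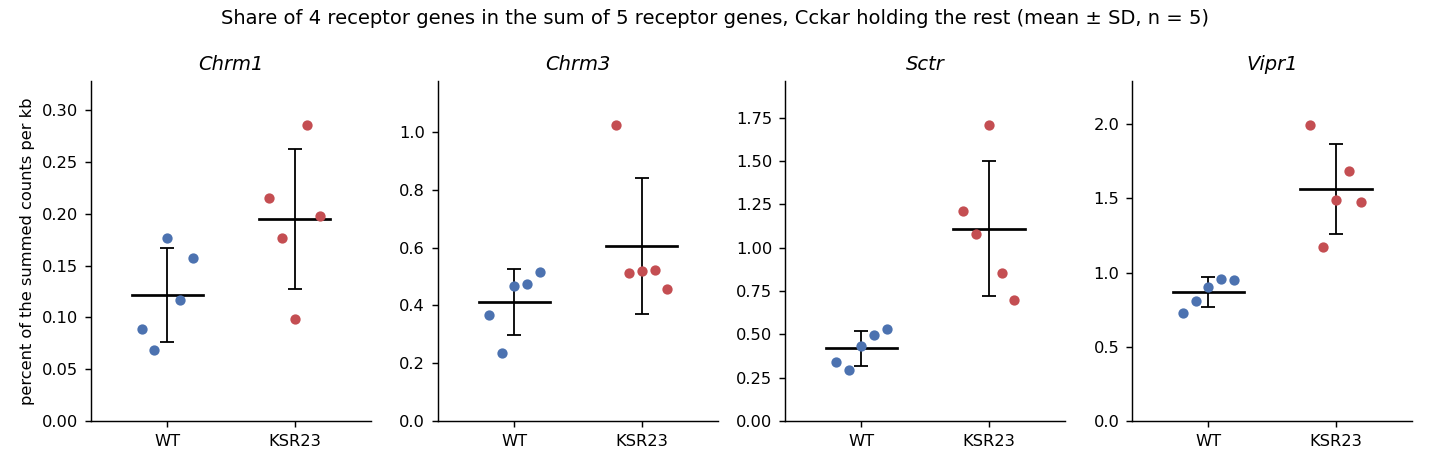
Share of the summed counts per kb of the 5 receptor genes held by Chrm1, Chrm3, Sctr and Vipr1 (vertical axis, percent, from 0, a scale of its own in each panel) in WT (blue) and KSR23 (red) mice, with mean and SD. Cckar holds the rest, and the shares of Sctr and Vipr1 do not overlap between the groups.

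Gnaq encodes the alpha subunit through which Cckar and the muscarinic receptors reach phospholipase C. It lies on chromosome 19, from 16132831 to 16387463 on the plus strand. The promoter window of Gnaq is shown because it is the one called member for which a promoter sequence was at hand. It covers 250 bases before and 50 after the RefSeq start site, at chr19:16132434-16132733 of GRCm38.p6 on the plus strand, and capitals mark matches to GGGCGG (a GC box, on either strand) and the 1 match to TTCNNNGAA (a palindrome bound by STAT proteins). GENCODE M21 places the start of Gnaq after the end of this window.
Gnaq: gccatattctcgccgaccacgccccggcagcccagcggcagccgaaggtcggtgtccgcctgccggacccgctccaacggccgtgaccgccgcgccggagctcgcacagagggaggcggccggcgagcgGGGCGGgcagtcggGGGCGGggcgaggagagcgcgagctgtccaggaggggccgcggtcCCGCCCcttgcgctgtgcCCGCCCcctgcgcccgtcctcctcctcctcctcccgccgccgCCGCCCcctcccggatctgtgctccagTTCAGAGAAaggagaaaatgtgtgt

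The Gnaq window had 75% G or C, against a median of 52.7% over all promoter windows, and held 5 GC boxes. At least 1 GC box was found in 35.7% of the 32851 promoter windows of the table. The TTCNNNGAA palindrome was found in 8.3% of all windows. Promoter windows were also at hand for Chrm3, Vipr1, Itpr2 and Itpr3, and none of those 4 held the palindrome. The search also covered other short motifs, namely the RBPJ core, the E-box and the TATA box. The Gnaq window held none of them, and they were found in 25.6%, 72.3% and 13.6% of all windows. The E-box was found in the windows of Chrm3, Itpr2 and Itpr3, and no member window held the RBPJ core or the TATA box. Itpr2, Vipr1 and Itpr3, which were not called, had 73.3%, 73.7% and 72.3% G or C and 5, 4 and 1 GC boxes. The Chrm3 window had 57.3% G or C and no GC box. These are matches of letters only, and no binding was measured here.

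Gnaq was at 25.0, 27.9, 29.9, 33.2 and 28.5 CPM in WT replicates 1 to 5 and at 18.6, 20.8, 17.5, 16.6 and 18.2 CPM in KSR23 replicates 1 to 5. Each KSR23 mouse was below each WT mouse, and the KSR23 mice lay close together. The mean fell from 28.9 ± 2.98 to 18.3 ± 1.54 CPM (SD, n = 5 each), for which the log2 FC was -0.66 (SE 0.0885, 95% interval -0.83 to -0.48, edgeR-adjusted p = 7.19e-06), and it was -0.64 without KSR23 replicate 3. Relative to the mean log2 CPM of the 8 acinar markers, Gnaq was at -5.64 ± 0.198 in WT mice against -5.55 ± 0.144 in KSR23 mice (exact permutation p = 0.452).

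Itpr1, Itpr2 and Itpr3 encode the IP3-gated calcium channels, of which Itpr2 and Itpr3 are the types best known from acinar cells. Itpr1 lies on chromosome 6 from 108213096 to 108551109, Itpr2 on chromosome 6 from 146108299 to 146502223, and Itpr3 on chromosome 17 from 27057304 to 27122223. Itpr1 was at 11.8, 10.02, 8.46, 11.2 and 10.1 CPM in WT replicates 1 to 5 and at 8.47, 7.14, 7.66, 6.89 and 7.26 CPM in KSR23 replicates 1 to 5. The groups overlapped only through WT replicate 3 and KSR23 replicate 1. The mean fell from 10.3 ± 1.30 to 7.48 ± 0.619 CPM (SD, n = 5 each), for which the log2 FC was -0.46 (SE 0.116, 95% interval -0.69 to -0.24, edgeR-adjusted p = 0.00442), and it was -0.47 without KSR23 replicate 3. The exact permutation p of its CPM values was 0.0159.

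Against the mean of the 8 acinar markers, Itpr1 was higher in KSR23 mice. It was at -7.13 ± 0.180 in WT mice against -6.84 ± 0.177 in KSR23 mice (SD, n = 5 each, exact permutation p = 0.0397), so its fall was smaller than the mean fall of those markers, though its log2 FC was close to their median of -0.465. Of 3 such comparisons for Cckar, Gnaq and Itpr1, this p is the lowest, and it was not adjusted for their number.

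Itpr2 was at 11.7, 9.99, 11.5, 14.4 and 15.3 CPM in WT replicates 1 to 5 and at 11.3, 10.5, 9.89, 12.9 and 10.9 CPM in KSR23 replicates 1 to 5. WT replicates 4 and 5 were the highest, and the other WT mice lay among the KSR23 mice. Its log2 FC of -0.17 had a 95% interval of -0.41 to 0.06 (edgeR-adjusted p = 0.286).

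Itpr3 was at 10.2, 7.14, 6.46, 7.42 and 10.2 CPM in WT replicates 1 to 5 and at 8.25, 9.001, 9.61, 14.2 and 9.35 CPM in KSR23 replicates 1 to 5. KSR23 replicate 4 was above all other mice, and the other 4 KSR23 mice lay inside the WT range. Its log2 FC of 0.29 had a 95% interval of -0.02 to 0.60 (edgeR-adjusted p = 0.172). It was 0.13 without KSR23 replicate 4 (edgeR-adjusted p = 0.542). Antisense genes overlap exons of Itpr1, Itpr3, Chrm1 and Atp2a2, and the kit does not mark strand, so reads of these partners cannot be told apart.

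The makeup of the IP3 receptor transcripts differed between the groups. Per kb of transcript, Itpr1 held 34.5% ± 3.28 of the sum of the 3 genes in WT mice against 27.1% ± 3.96 in KSR23 mice (SD, n = 5 each). Itpr3 held 30.0% ± 3.32 in WT mice against 39.3% ± 4.79 in KSR23 mice. Both shares had an exact permutation p of 0.0159, or 0.0238 adjusted over the 3 shares, although their ranges overlapped at the edge (29.4% to 38.1% against 20.6% to 31.3% for Itpr1, and 25.8% to 33.9% against 33.4% to 46.7% for Itpr3). Itpr2 held 35.4% ± 4.05 and 33.6% ± 1.55 (exact permutation p = 0.389). The summed level was 3.04 ± 0.405 CPM per kb in WT mice against 2.83 ± 0.314 in KSR23 mice (exact permutation p = 0.476). The log2 ratio of Itpr3 to Itpr1 per kb went from -0.20 ± 0.241 in WT mice to 0.54 ± 0.394 in KSR23 mice (exact permutation p = 0.0159). Shares within a library do not depend on how libraries are scaled. Each share depends on the other genes of the sum, so the 2 shares and the ratio are not separate results. By level, Itpr1 alone of the 3 genes was called. Without KSR23 replicate 4, whose Itpr3 level was the highest, the difference in the Itpr3 share was 7.37 percentage points in place of 9.23, with an exact p of 0.0476 after adjustment. Without KSR23 replicate 3 it was 9.115 points (exact p of 0.0357 after adjustment).

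**Figure D4:**
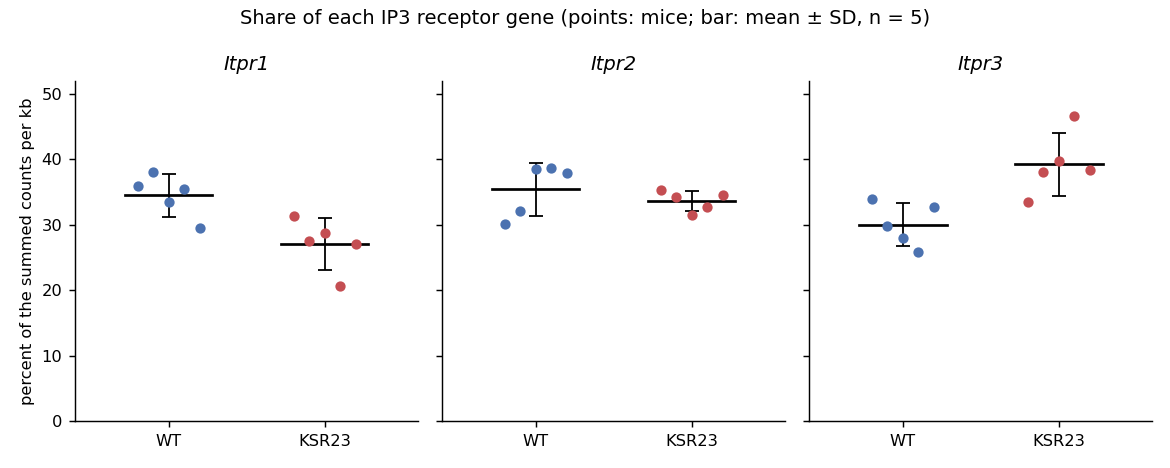
Share of each IP3 receptor gene in the summed counts per kb of Itpr1, Itpr2 and Itpr3 (vertical axis, percent, from 0) in 5 WT (blue) and 5 KSR23 (red) mice, with mean and SD. The Itpr1 share goes from a mean of 34.5% to 27.1% and the Itpr3 share from 30.0% to 39.3%, with the groups overlapping at their edges.

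Atp2a2, the pump that refills the store, was at 102.2, 105.5, 110.7, 103.8 and 115.5 CPM in WT replicates 1 to 5 and at 140.5, 112.2, 99.21, 115.6 and 127.5 CPM in KSR23 replicates 1 to 5. It lies on chromosome 5 from 122453513 to 122502225 on the minus strand. KSR23 replicates 1, 4 and 5 were above all WT mice, and KSR23 replicate 3, the smallest library, was below them all. The log2 FC of 0.15 (SE 0.0790, 95% interval -0.01 to 0.30) was not called (edgeR-adjusted p = 0.163). It was called higher without KSR23 replicate 3 (log2 FC 0.21, edgeR-adjusted p = 0.04) and under total-count scaling (log2 FC 0.24, edgeR-adjusted p = 0.0367). Of the 75-base windows of its transcript, 96.9% occur in no other annotated gene, and for the other 9 members this share was 100%.

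The order of the members by level per kb was led by Cckar, Atp2a2, Gnaq and Vipr1 in both groups. In WT mice these 4 were at 164 ± 10.5, 23.97 ± 1.22, 5.12 ± 0.529 and 1.45 ± 0.180 CPM per kb (SD, n = 5), and no range among them overlapped another. Itpr2, Itpr1, Itpr3, Sctr and Chrm3 followed, from 1.08 down to 0.685 CPM per kb, each overlapping its neighbour, Vipr1 and Itpr2 included. Chrm1 was lowest at 0.200 ± 0.0657 CPM per kb, below every Chrm3 value. In KSR23 mice Sctr came next after Vipr1, at 1.19 ± 0.306 CPM per kb, above Itpr3, Itpr2 and Itpr1, but its range overlapped that of Itpr3, the next in the order. These levels depend on the transcript taken for the length.

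Other genes of the pathway were placed in 7 lists by role, holding 119 symbols, with 118 of them in the files and 102 passing the filter on counts. In all 16 were called higher and 16 lower, 31.4% of those tested against the 31.1% of all genes. Their median log2 FC was -0.0165. Under total-count scaling, 8 were called lower, and over all genes the share of calls that were higher went from 52.3% to 72.5%.

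**Figure D5:**
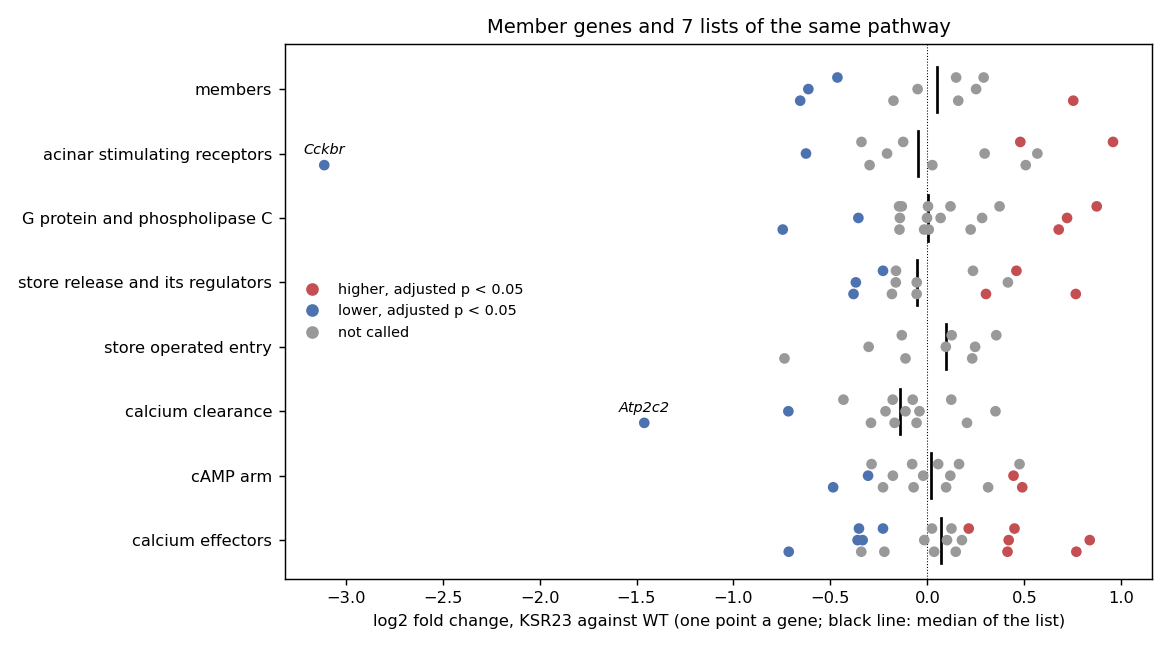
Log2 FC of KSR23 against WT (horizontal axis) for each tested gene of the members and the 7 pathway lists, 1 point a gene, with the median of each list as a black line. Red points are called higher, blue lower and grey not called, and the lowest points are Cckbr (-3.11) and Atp2c2 (-1.46).

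Among 16 other receptor and sensor genes, 12 were tested, of which 2 were higher, 2 lower and 8 not called. Cckbr, which encodes the second cholecystokinin receptor and binds gastrin, fell from 11.25 ± 2.04 to 1.27 ± 0.481 CPM (SD, n = 5 each), for which the log2 FC was -3.11 (SE 0.204, edgeR-adjusted p = 3.8e-10), without overlap. This was a far larger fall than that of Cckar, in a gene at a much lower level. Sstr2, a receptor for the inhibitory hormone somatostatin, fell with a log2 FC of -0.63 (edgeR-adjusted p = 0.00533). P2ry2, a receptor for extracellular ATP and UTP, rose with a log2 FC of 0.96 (edgeR-adjusted p = 0.000126), without overlap. Piezo1, a pressure-gated channel, rose with a log2 FC of 0.48 (edgeR-adjusted p = 0.0377) but lost its call in 7 of 18 alternatives. Of 7 islet markers, Ins1, Ins2, Gcg, Sst and Chga were called lower, Ppy higher and Neurod1 was not called, with summed levels of 7640 to 10790 CPM in WT mice against 4714 to 5890 CPM in KSR23 mice, and their part in the falls of Cckbr and Sstr2 was not tested. Ins1 lost its call in 7 alternatives, Ppy in 6 and Chga under total-count scaling.

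Of 18 tested genes for G proteins, phospholipases C and their regulators, 3 were higher, 2 lower and 13 not called. Gna14, a subunit of the same class as Gnaq, fell from 11.4 ± 2.12 to 6.81 ± 1.19 CPM, and its log2 FC was -0.75 (edgeR-adjusted p = 0.000407), without overlap. Gna11, the closest relative of Gnaq, averaged 55.6 CPM in WT mice against 55.5 CPM in KSR23 mice, with log2 FC at -0.00195 (edgeR-adjusted p = 0.986). The phospholipase C genes went in both directions. Plcb3 rose from 18.8 ± 2.21 to 30.9 ± 2.57 CPM (log2 FC 0.72, edgeR-adjusted p = 2.99e-06) and Plcg2, used by immune receptors, from 6.14 ± 1.80 to 11.3 ± 1.45 CPM (log2 FC 0.87, edgeR-adjusted p = 0.000324). Plcd3 rose with a log2 FC of 0.68 (edgeR-adjusted p = 0.0121), while Plcb1 fell with a log2 FC of -0.36 (edgeR-adjusted p = 0.016) and lost its call under total-count scaling. In the same libraries 7 of 7 myeloid markers were called higher, with summed levels of 95.63 to 112.5 CPM in WT mice against 132.6 to 312.4 CPM in KSR23 mice, and the part of such cells in the rise of Plcg2 was not tested. Of these markers, Itgam lost its call in 9 of 18 alternatives, 8 of them with 1 library left out, and S100a8 and S100a9 lost theirs with the replicate block and without WT replicate 1, 2, 3 or 5.

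Of 13 tested genes for other release channels and regulators of release, 3 were higher and 3 lower. Calr, a calcium-binding chaperone of the store, rose from 345.8 ± 25.5 to 426.2 ± 43.2 CPM (log2 FC 0.30, edgeR-adjusted p = 0.0044). Itprip, which encodes a protein that binds IP3 receptors, and Cd38, which encodes an enzyme that makes calcium-mobilizing nucleotides, had log2 FC of 0.77 and 0.46 (edgeR-adjusted p = 0.00813 and 0.0197). Cd38 overlapped between the groups and lost its call without WT replicate 1, WT replicate 5 or KSR23 replicate 1, where its log2 FC was lowest, at 0.29 (edgeR-adjusted p = 0.0787). Calm3, a calmodulin gene, and Ahcyl1, a protein that competes with IP3 at its receptor, fell with log2 FC of -0.38 and -0.23 (edgeR-adjusted p = 0.00112 and 0.0133), and Ahcyl1 lost its call under total-count scaling. The ryanodine receptor genes Ryr1, Ryr2 and Ryr3 had too few counts to be tested, with group means from 0.1664 to 0.4237 CPM.

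No gene of store-operated entry was called, among 9 tested that include Stim1, Stim2, Orai1, Orai2 and Orai3 (list median log2 FC 0.0949). Without adjustment 4 of the 9 had a quasi-likelihood p under 0.05, and the likelihood ratio test and DESeq2 called 1 each. Under total-count scaling 3 were called higher, which were Orai1, Orai2 and Orai3. Of 14 tested genes that clear calcium, 2 were lower and 12 not called. Atp2c2, a calcium pump of the secretory pathway, fell from 32 ± 2.1 to 11.6 ± 3.09 CPM (SD, n = 5 each), for which the log2 FC was -1.46 (SE 0.142, edgeR-adjusted p = 6.04e-07), without overlap. Slc8a1, a sodium-calcium exchanger, fell with a log2 FC of -0.72 (edgeR-adjusted p = 0.00712). Atp2a3, the other SERCA gene tested, and Atp2c1, the relative of Atp2c2, had log2 FC of -0.04 and 0.12 (edgeR-adjusted p = 0.787 and 0.193).

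In the cyclic AMP arm, to which Sctr and Vipr1 signal, 2 of 16 tested genes were higher and 2 lower. Prkacb and Prkar2b, subunits of protein kinase A, fell with log2 FC of -0.31 and -0.49 (edgeR-adjusted p = 0.00833 and 0.0222), and both lost their calls under total-count scaling. Prkar2b also lost its call without WT replicate 2 or 3 or KSR23 replicate 1, 4 or 5 (highest edgeR-adjusted p = 0.0783 over all alternatives). Rapgef3, a cyclic AMP sensor, and Adcy3, an adenylyl cyclase, had log2 FC of 0.44 and 0.49 (edgeR-adjusted p = 0.0212 and 0.0487), and Adcy3 lost its call in 12 of 18 alternatives. Rapgef3 lost its call without WT replicate 3 or 4 or KSR23 replicate 4 or 5 (highest edgeR-adjusted p = 0.0709), so that no gene of the arm was called higher without WT replicate 3 or without WT replicate 4.

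Of 20 tested genes that act downstream of calcium, 6 were higher, 5 lower and 9 not called. Kcnn4, a calcium-activated potassium channel, rose from 9.96 ± 0.522 to 17.9 ± 3.96 CPM (SD, n = 5 each), giving a log2 FC of 0.84 (edgeR-adjusted p = 1.6e-05), and Slc12a2, the sodium-potassium-chloride cotransporter of fluid secretion, rose with a log2 FC of 0.77 (edgeR-adjusted p = 0.00152), both without overlap. Nfatc1 and Prkcd, a calcineurin-dependent transcription factor and a protein kinase C, rose with log2 FC of 0.45 and 0.42 (edgeR-adjusted p = 0.000254 and 0.000271). Prkce, another protein kinase C, fell with a log2 FC of -0.72 (edgeR-adjusted p = 0.0019). The calcineurin subunit genes Ppp3r1 and Ppp3cb and the transcription factor gene Nfatc3 had log2 FC of -0.33, -0.36 and -0.35 (edgeR-adjusted p = 0.0113, 0.0165 and 0.0147), and all 3 lost their calls under total-count scaling, as did Ppp3cb without WT replicate 2 and Nfatc3 without WT replicate 4.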

How the data were processed

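Pancreas RNA of 5 WT and 5 KSR23 mice was analyzed. From 100 pg of RNA the authors made oligo-dT primed cDNA (15 and then 12 PCR cycles), mapped single 75-base reads on mm10 using TopHat2 2.1.0 and deposited raw counts per gene from HTSeq 0.6.1p1 (strict intersection), where reads without a unique alignment went to no gene. The annotation release and the strand setting are not given in the sources used here. The deposited counts hold 5 tallies that name no gene, which were left out of library sizes. Of the uniquely aligned reads, 6.74% to 7.54% in WT and 5.78% to 6.32% in KSR23 libraries were given to no gene, without overlap. The tally of alignments that were not unique was 28599887 to 38736114 in WT and 11156558 to 39778810 in KSR23 libraries. This tally was above the gene counts in each WT library and below them in each KSR23 library. The cause of these differences was not tested.

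The filter of 5 counts in each library left 13882 of 24062 genes. Counts were TMM-scaled and tested with edgeR 4.0.16 in R 4.3.3 (quasi-likelihood test, robust estimation, Benjamini-Hochberg adjustment), and log2 CPM used a prior count of 2. The standard error was taken as the log2 FC divided by the square root of F. Shares and single values were compared with exact permutation tests over 252 splits, with Benjamini-Hochberg adjustment over the shares of a set. Lengths, positions and 75-base windows are from GENCODE M21. Promoter windows are from RefSeq (GRCm38.p6) and were at hand for 5 of 10 members. As alternatives, a likelihood ratio test, DESeq2 1.42.0, 3 other scalings, 2 other filters, a block by replicate number and fits without 1 library were run. Levels relative to marker means were added after the values were seen. The fit was also run on simulated data with 200 changed genes, and the outcome is not reported here.

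A count of 3 corresponds to 0.0535 to 0.168 CPM depending on the library. Reads copied by PCR are not independent molecules, so such floors cover counting error only. Libraries of a group differed by a chi-square of 10.1 or more per degree of freedom, so none was a copy. The study calls them biological replicates. The labels do not name the mice, and p-values measure the spread between these libraries.

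The members and gene lists were chosen with earlier results of these data known. The text names all members, up to 4 called genes of each pathway list in each direction by lowest adjusted p, the 5 genes nearest to Cckar, and markers. Some genes of the lists are counted but not reported by name here. Gna11, Atp2a3, Atp2c1 and the Ryr, Stim and Orai genes were named after their values were seen. In all, 4 listed symbols were matched to the files through older names in RefSeq. Of 5 fibroblast markers 1 was called higher (median log2 FC -0.00255), and of 5 endothelial markers 1 was higher and 2 were lower (-0.0394). Of 3 tested lymphoid markers 1, Cd3e, was lower (list median -0.452). Cd3d, Ms4a1 and Nkg7 had too few counts to be tested. Their means were higher in KSR23 mice (0.446, 0.541 and 0.544 CPM) than in WT mice (0.11, 0.428 and 0.258 CPM).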

Additional observations from a re-analysis of the deposited data

Results flagged for a closer look

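Among 36 groups of 5 values, 1 mouse lay far outside the rest in 4, and about 1.8 would be found by chance. WT replicate 3 had 471.9 CPM of Cckar against 537.6 to 560 CPM in the other WT mice. KSR23 replicate 1 had 4.3 CPM of Chrm3 against 2.236 to 2.73 CPM in the other KSR23 mice, and accordingly 1.024% of the receptor sum per kb against 0.4554% to 0.5239%. KSR23 replicate 4 had 14.23 CPM of Itpr3 against 8.247 to 9.613 CPM in the other KSR23 mice.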

How the results depend on the processing

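Of 180 values of the 10 members' log2 FC over 18 alternatives, 172 kept their direction and their side of the threshold. The number of members called lower was 3 in each alternative. Scaling by library totals alone gave 2 members higher (Sctr and Atp2a2) and 8 pathway genes lower in place of 16, and it put the median of all genes at 0.0865. The same scaling put the log2 FC of Chrm3 at 0.04851, and this value ranged from -0.2563 to 0.04269 with 1 library left out. Without KSR23 replicate 3, 1 member was called higher, but it was Atp2a2 in place of Sctr. Of 88 share values, 86 kept their side of the threshold. With 1 library left out, the difference in the Chrm1 share ranged from 0.05054 to 0.09724 percentage points and that in the Chrm3 share from 0.09055 to 0.2327, with the lowest adjusted p of the exact test at 0.0198 for each (without KSR23 replicate 3 for Chrm1, without KSR23 replicate 5 for Chrm3). Among 29 named pathway genes, 11 lost their call in at least 1 alternative, 7 of them under scaling by library totals, and none changed direction. The number of all genes called was 4317, and 3541 to 4207 with 1 library left out. With the replicate number as a block (replicate block), 3813 genes, 1 member higher and 3 members lower were called. The causes of these changes were not tested. Deviations of same-numbered WT and KSR23 libraries correlated at -0.111 to 0.0661. A weak effect of a shared litter or batch need not appear in such values, so they cannot tell whether the numbers pair the mice.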
